A study of Homo sapiens with 4 samples.

Results

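The SLC25 genes encode the carrier proteins of the mitochondrial inner membrane. The genes described here were all protein-coding genes listed under the symbol SLC25A followed by a number, without *SLC25A11*, *SLC25A12* and *SLC25A13*, which gave 45 of the 40205 genes listed. Their levels were measured by RNA-seq in lung adenocarcinoma (LUAD) cells 24 h after transfection with a control siRNA (NC 1 and NC 2) or with an siRNA against circZFR (si-circZFR 1 and si-circZFR 2), so each group had 2 libraries. CircZFR is a circular RNA made from exons of the gene *ZFR*, and the siRNA was designed against the junction that closes the circle. The study names the cells A549, whereas the sample labels name H1299, and nothing states that the 2 libraries of a group came from separate cultures, so the p values measure the spread between these libraries, which may be technical. The cells of all 4 libraries were grown in RPMI with serum and carried no other stated modification. In a bulk library, fewer cells of a type and less RNA per cell cannot be told apart.

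Most SLC25 proteins sit in the inner mitochondrial membrane, which ions and charged metabolites do not cross freely. Each carrier exchanges or imports a small set of substrates. The ADP/ATP carriers send ATP made by oxidative phosphorylation (OXPHOS) to the cytosol and return ADP, the phosphate carrier brings in the phosphate that ATP synthase needs, and others move citrate, amino acids, carnitine esters, nucleotides, vitamins or iron. A few members work elsewhere: SLC25A17 is a carrier of the peroxisome and SLC25A46 lies in the outer mitochondrial membrane. The proteins carry no cleaved presequence as a rule and reach the inner membrane through their own import route, with small TIM chaperones and the TIM22 complex.

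The libraries held between 11040050 and 12816868 reads. All levels are RPKM (reads relative to transcript length and to the library total) scaled between libraries by factors from 0.904 to 1.11, and are called scaled RPKM. *ZFR*, whose row takes reads of the linear mRNA and of the exons in the circle alike, was at 25.98 and 31.9 scaled RPKM in the NC libraries. It was at 5.25 and 4.63 in the si-circZFR libraries (log2FC -2.33, limma FDR 0.0388). By RT-PCR, the paper found that the siRNA lowered circZFR without a detectable effect on *ZFR*. How much of the fall in this row was in the linear mRNA was not tested. The differences below therefore cannot be assigned to the circle alone. *AKR1B10* and *AKR1C1*, aldo-keto reductase genes that are high in A549, were at 1296 to 1677 and 515 to 686. The fibrinogen genes *FGA*, *FGB* and *FGG* had also been chosen as genes high in A549. They were at only 3.15 to 6.21, 0.775 to 2.60 and 2.21 to 5.99. Which line was sequenced was not tested. Of the markers of other cell types, *PTPRC* (leukocytes) was listed at 0 in every library, *PECAM1* (endothelium) and *SFTPC* (alveolar type II cells) had at most 2 reads in a library, and *COL1A1* (fibroblasts) was at 0.612 to 0.877 in the NC libraries and 1.34 to 1.89 in the si-circZFR libraries. The epithelial genes *CDH1* (8.52 and 11.4 against 21.3 and 21.7) and *KRT18* (1243 and 1453 against 1652 and 1786) were also higher in the si-circZFR libraries. The part of these differences in the carrier values was not tested.

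The promoters shown first are those of *SLC25A17*, *SLC25A20* and *SLC25A29*, the members with the smallest unadjusted p, and that of *SLC25A6*, an ADP/ATP carrier gene listed at 0 throughout. They are RefSeq promoters on GRCh38.p14, from 250 bases before the transcription start to 50 after it, 5′ to 3′ on the strand of the gene. Capitals mark CCAAT (the CCAAT box) and CCGGAAG (an ETS motif), or their reverse complements. The SLC25A17 window is chr22:40819297-40819596 (minus strand), the SLC25A20 window chr3:48898833-48899132 (minus strand), and the SLC25A29 window chr14:100306395-100306694 (minus strand). The SLC25A6 window is chrX:1392064-1392363 (minus strand), with the same letters at the same positions of chromosome Y.
SLC25A17: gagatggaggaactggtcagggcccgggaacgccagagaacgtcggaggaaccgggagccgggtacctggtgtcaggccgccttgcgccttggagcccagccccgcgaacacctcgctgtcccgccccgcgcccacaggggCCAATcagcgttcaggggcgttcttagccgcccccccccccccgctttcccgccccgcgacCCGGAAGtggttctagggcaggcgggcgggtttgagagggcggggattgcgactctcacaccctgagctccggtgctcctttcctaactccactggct
SLC25A20: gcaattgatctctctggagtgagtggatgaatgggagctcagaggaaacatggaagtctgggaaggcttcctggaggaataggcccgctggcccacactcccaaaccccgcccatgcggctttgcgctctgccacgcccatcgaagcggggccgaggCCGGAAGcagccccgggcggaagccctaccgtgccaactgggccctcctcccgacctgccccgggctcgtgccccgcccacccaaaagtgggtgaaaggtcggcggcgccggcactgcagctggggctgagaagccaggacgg
SLC25A29: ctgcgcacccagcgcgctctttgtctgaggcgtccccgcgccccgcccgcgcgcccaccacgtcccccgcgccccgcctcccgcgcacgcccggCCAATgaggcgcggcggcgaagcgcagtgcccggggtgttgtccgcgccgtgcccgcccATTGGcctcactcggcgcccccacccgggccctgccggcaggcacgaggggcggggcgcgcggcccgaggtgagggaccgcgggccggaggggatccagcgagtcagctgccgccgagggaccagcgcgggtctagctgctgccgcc
SLC25A6: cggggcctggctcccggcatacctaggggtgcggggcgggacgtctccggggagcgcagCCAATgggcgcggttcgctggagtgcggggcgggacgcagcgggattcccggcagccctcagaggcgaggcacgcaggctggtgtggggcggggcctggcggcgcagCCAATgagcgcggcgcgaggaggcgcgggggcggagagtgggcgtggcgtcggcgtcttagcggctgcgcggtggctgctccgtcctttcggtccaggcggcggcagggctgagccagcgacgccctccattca

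A promoter was found for 37 of the 45 genes. CCAAT stood on either strand in 18 of these 37 (48.6%), against 35.7% of all 27305 promoters in the reference table, and CCGGAAG in 8 (21.6%) against 10.7%. The E-box CACGTG was in 6 (16.2%, all promoters 7.43%), the nuclear receptor site AGGTCA in 3 (8.11%, all 13.9%), TATAAA in 3 (8.11%, all 12.0%) and the YY1 motif AAGATGG in 2 (5.41%, all 6.06%). The NRF1 letters GCATGCGC were in 0 of 37 and in 3.27% of all promoters. Both strands were searched, and no motif of this set lies inside another. These are matches of letters, counted as a description.

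Of the 45 genes, 41 had reads in at least 1 library and 32 reached an RPKM of at least 1 in 2 libraries, the level set for the test. *SLC25A31* (the ADP/ATP carrier of the testis), *SLC25A6*, *SLC25A47* and *SLC25A48* were listed at 0 in every library. Another 9 had reads but stayed below the level (*SLC25A2*, *SLC25A18*, *SLC25A21*, *SLC25A27*, *SLC25A34*, *SLC25A41*, *SLC25A42*, *SLC25A52* and *SLC25A53*), with at most 32 reads in a library and at most 0.853 RPKM. The highest of these was *SLC25A27*, the brain uncoupling protein relative UCP4, with 28, 9, 28 and 32 reads. These genes were not tested.

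The carrier transcripts were dominated by 3 genes. *SLC25A5*, *SLC25A3* and *SLC25A39* together made up 70.4% and 77.8% of the summed scaled RPKM of all SLC25 genes in the NC libraries, and 68.8% and 68.0% in the si-circZFR libraries. The summed level was 884 in NC 1, 1170 in NC 2, 802 in si-circZFR 1 and 800 in si-circZFR 2, so NC 2 stood apart and NC 1 lay nearer to the si-circZFR libraries than to NC 2. Without these 3 genes the sum was 262, 260, 250 and 256, a much narrower range. The other tested genes lay between 1.10 and 35.9 scaled RPKM in single libraries.

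**Figure D1:**
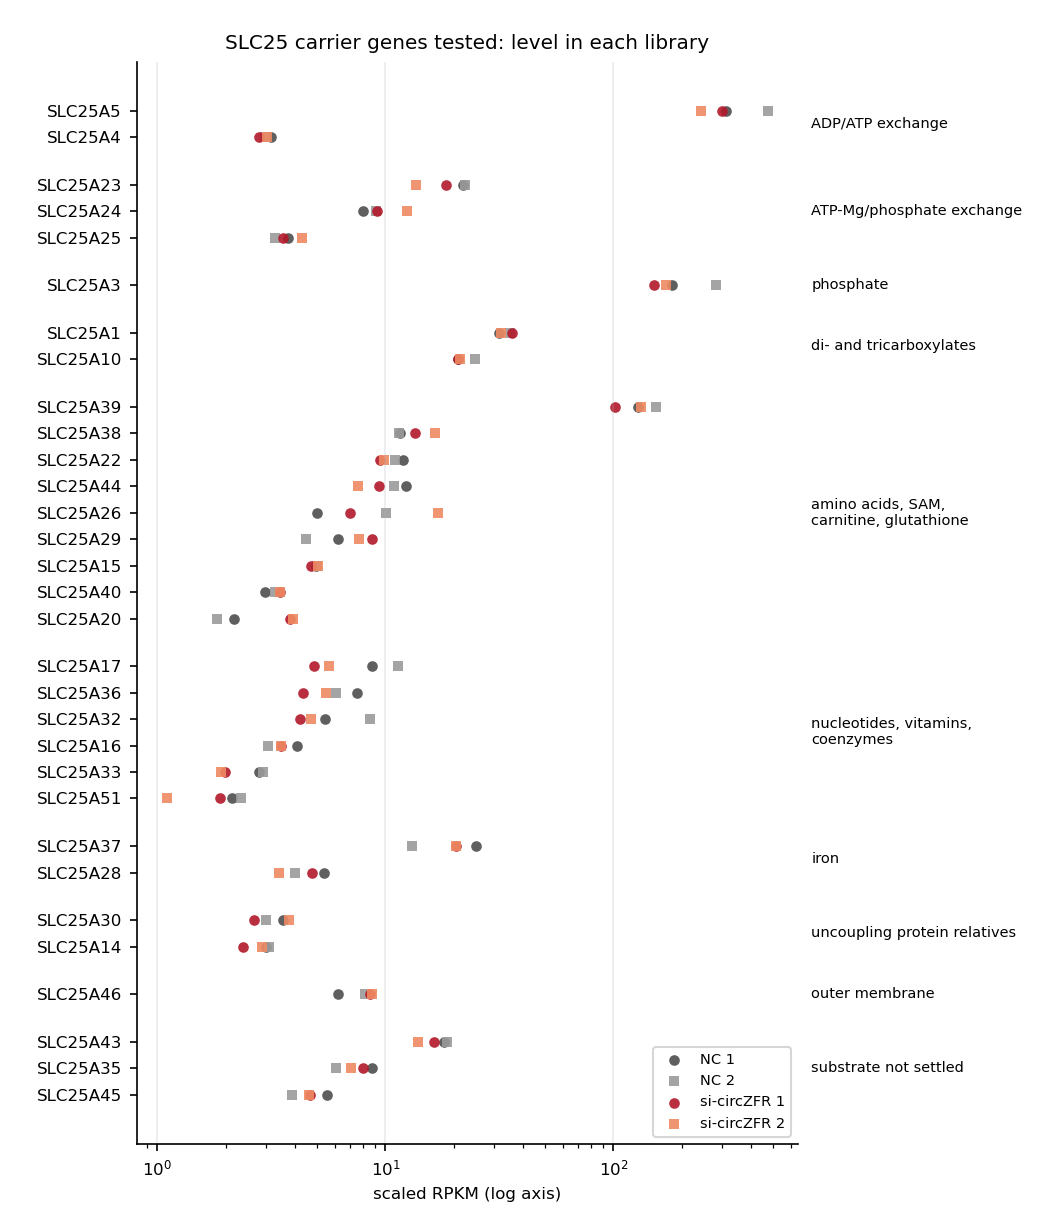
Scaled RPKM (log axis) of 31 tested SLC25 genes in each of the 4 libraries, grouped by substrate and ordered by level within a group; circles are the first and squares the second library of a group, grey for NC and red or orange for si-circZFR. *SLC25A5*, *SLC25A3* and *SLC25A39* stand above 100 in every library, and the next gene, *SLC25A1*, lies at 31.4 to 35.9.

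Among the ADP/ATP carriers the proliferation-associated isoform *SLC25A5* (ANT2) was at 313 scaled RPKM in NC 1, 476 in NC 2, 300 in si-circZFR 1 and 242 in si-circZFR 2. Each si-circZFR library was lower than each NC library, although si-circZFR 1 was close to NC 1 and the NC libraries differed from each other more than the groups did. The log2FC was -0.52 (SE 0.29, limma FDR 0.342), with -0.22 without NC 2 and -0.82 without NC 1. *SLC25A4* (ANT1), the isoform of heart and muscle, was at 3.14, 2.97, 2.78 and 3.01, with a log2FC of -0.06 and a 95% interval from -0.47 to 0.36. The level of *SLC25A5* was 80.2 to 160 times that of *SLC25A4* in the same library.

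The ubiquitous isoform *SLC25A6* (ANT3), whose gene lies in the region shared by chromosomes X and Y, was listed at 0 in all 4 libraries. Its 6 listed pseudogenes had 19 and 15 reads in the NC libraries and 14 and 8 reads in the si-circZFR libraries. Of the 16 protein-coding genes with a RefSeq promoter on both X and Y, 15 were listed at 0 in every library, the exception being *CD99*, whereas 21.3% of all protein-coding genes (4219 of 19784) were. The values therefore give no level for *SLC25A6*, and why these genes are at 0 was not tested. The 9 *SLC25A5* pseudogenes held 3.26% and 2.55% of the reads of gene and pseudogenes together in the NC libraries and 2.09% and 1.53% in the si-circZFR libraries, and the 3 *SLC25A3* pseudogenes 0.482% to 0.798%. How reads were divided between a gene and its copies is not given in the sources used here, so reads shared between them leave the levels of both genes uncertain by an amount that was not tested.

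The phosphate carrier *SLC25A3* was, like *SLC25A5*, highest in NC 2, whereas its si-circZFR libraries stood in the opposite order. It was at 181 scaled RPKM in NC 1, 281 in NC 2, 151 in si-circZFR 1 and 170 in si-circZFR 2. The groups were apart, with NC 1 only slightly above si-circZFR 2. The log2FC was -0.49 (SE 0.27, limma FDR 0.335), with -0.17 without NC 2 and -0.81 without NC 1. The ratio of *SLC25A5* to *SLC25A3* was 1.73 and 1.70 in the NC libraries and 1.99 and 1.42 in the si-circZFR libraries, on either side of the NC values.

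The ATP-Mg/phosphate carriers, which adjust the adenine nucleotide pool of the matrix in response to calcium, went in different directions. *SLC25A23* was at 22.003 and 22.3 scaled RPKM in the NC libraries and at 18.4 and 13.6 in the si-circZFR libraries (log2FC -0.46, SE 0.19, limma FDR 0.235, and log2FC -0.26 without si-circZFR 2). Both si-circZFR values were lower, and they differed from each other nearly as much as the groups did. *SLC25A24* was at 7.99, 9.06, 9.15 and 12.5, barely apart in the other direction (log2FC 0.30, FDR 0.414). *SLC25A25* overlapped between the groups (3.75, 3.29, 3.56 and 4.30).

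No SLC25 gene passed the test. The threshold (limma FDR under 0.05 and |log2FC| over 1) was met by 8 of the 13885 genes tested (0.0576%) and by 0 of the 32 carriers, of which the smallest FDR was 0.11. By limma-voom on recovered reads 0 carriers passed as well, where 2.19% of all genes tested did. At an unadjusted p under 0.05, 1 carrier was lower (3.13%) and 2 were higher (6.25%) in si-circZFR, against 11.5% of all genes tested that were lower and 10.1% that were higher. Both si-circZFR libraries lay below both NC libraries for 12 carriers (37.5%) and above for 6 (18.8%). The shares over all genes tested were 28.1% below and 28.1% above. On RPKM without scaling these counts were 8 below (25%, all genes 18.2%) and 8 above (25%, all genes 39.6%). The median log2FC of the 32 carriers was -0.044 and that of all genes tested 0.0063. The median size of a change was 0.26 for carriers and 0.27 for all genes, 6 carriers had a |log2FC| over 0.5 (24.0% of all genes tested did), and none exceeded 1. The 95% interval reached from 0.37 to 1.12 (log2) on either side of a gene's value, with a median of 0.46, so that changes below that size could not be resolved with 2 libraries a group.

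**Figure D2:**
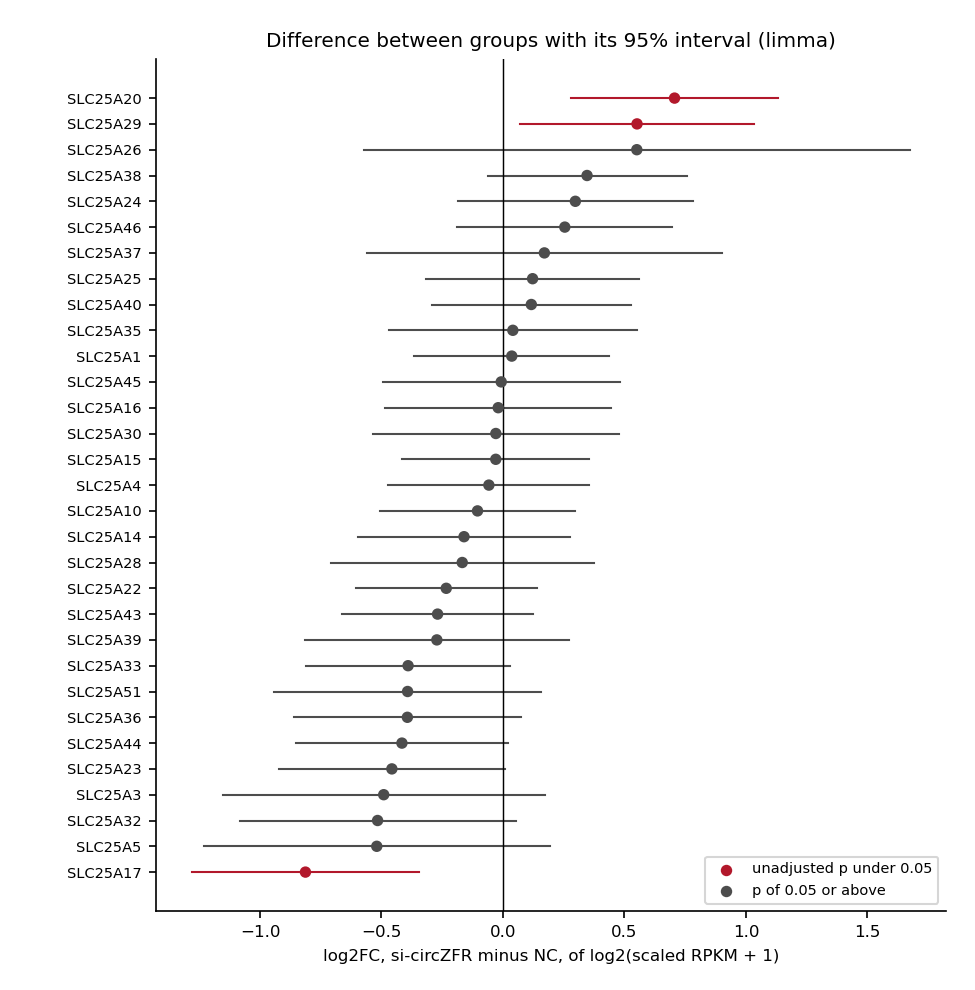
Log2FC (si-circZFR minus NC, on log2 of scaled RPKM + 1) of 31 tested SLC25 genes with the 95% interval from limma; red marks an unadjusted p under 0.05. *SLC25A17* lies lowest at -0.81 and *SLC25A20* highest at 0.71, and the intervals of 28 genes include 0.

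*SLC25A17*, the peroxisomal carrier of coenzyme A, FAD and adenine nucleotides and the carrier with the smallest p, was lower in the si-circZFR libraries. It was at 8.74 scaled RPKM (239 reads) in NC 1, 11.4 (308 reads) in NC 2, 4.87 (130 reads) in si-circZFR 1 and 5.68 (162 reads) in si-circZFR 2. Each si-circZFR library was well below each NC library, by more than either group's own spread. The mean was 1.91-fold lower, with a log2FC of -0.81 (SE 0.19, 95% interval -1.28 to -0.35, limma FDR 0.11). The unadjusted p stayed under 0.05 in all 13 other settings and leave-outs, and the FDR fell to 0.0429 without NC 1. Its promoter, shown above, holds 1 CCAAT box and 1 ETS motif.

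*SLC25A20*, the carnitine/acylcarnitine carrier that admits long-chain fatty acids to the matrix for β-oxidation, was higher. Its levels were 2.16 scaled RPKM (48 reads) in NC 1, 1.83 (40 reads) in NC 2, 3.83 (83 reads) in si-circZFR 1 and 3.93 (91 reads) in si-circZFR 2. The replicates of each group were close and the groups were clearly apart. The mean was 1.94-fold higher, with a log2FC of 0.71 (SE 0.17, 95% interval 0.28 to 1.13, limma FDR 0.118). The unadjusted p was under 0.05 in 12 of the 13 settings and rose above 0.05 without si-circZFR 2. The promoter carries 1 ETS motif and no CCAAT box.

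*SLC25A29*, a carrier of basic amino acids such as arginine and lysine, was the other gene that was higher at an unadjusted p under 0.05. It was at 6.17 scaled RPKM in NC 1, 4.48 in NC 2, 8.76 in si-circZFR 1 and 7.65 in si-circZFR 2. The mean was 1.54-fold higher (log2FC 0.55, SE 0.20, limma FDR 0.191). Its p rose above 0.05 without NC 2, without si-circZFR 1 and without si-circZFR 2, each left out alone (log2FC 0.36, 0.46 and 0.64). Its promoter has 2 CCAAT boxes, 1 on either strand. As the ratio of the genes at both ends of the range, chosen after their values were seen, *SLC25A20* to *SLC25A17* was 0.247 and 0.160 in the NC libraries and 0.786 and 0.692 in the si-circZFR libraries.

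**Figure D3:**
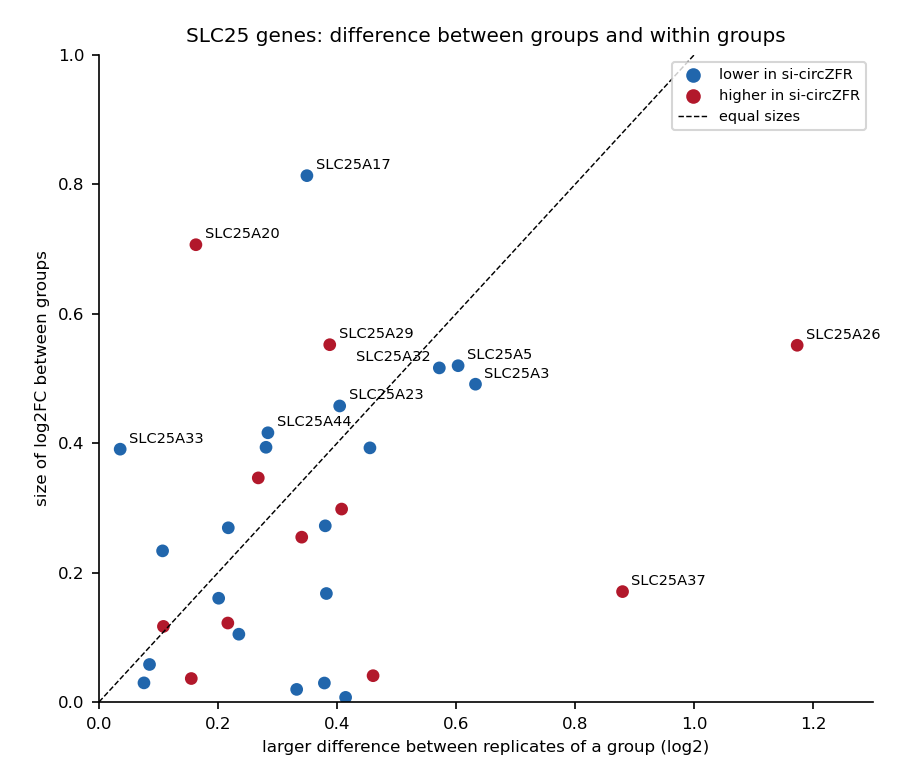
For 31 tested SLC25 genes, the size of the log2FC between groups (vertical) against the larger of the differences between the 2 libraries of a group (horizontal), both in log2; blue genes were lower and red genes higher in si-circZFR, and the dashed line marks equal sizes. *SLC25A17* and *SLC25A20* lie farthest above the line, while *SLC25A26* and *SLC25A37* lie far below it.

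The carriers of nucleotides, vitamins and coenzymes, to which *SLC25A17* belongs, were the group with most genes on the lower side. Of 9 listed genes 7 were tested, 6 had a log2FC below 0, 5 had both si-circZFR libraries below both NC libraries and 0 had both above (28.1% of all genes tested in either direction), with a median log2FC of -0.39. The median log2FC of all genes tested was 0.0063. Only *SLC25A17* had an unadjusted p under 0.05. *SLC25A16*, counted among those below 0, was at 4.11, 3.06, 3.49 and 3.50 scaled RPKM, with overlapping groups and a log2FC of only -0.019. *SLC25A32*, the folate and FAD carrier, was at 5.41, 8.53, 4.22 and 4.73 scaled RPKM (log2FC -0.52, limma FDR 0.262), and its log2FC was -0.23 without NC 2 and -0.80 without NC 1. *SLC25A33* (2.80, 2.90, 1.97 and 1.90) and *SLC25A36* (7.50, 6.07, 4.35 and 5.50), both carriers of pyrimidine nucleotides, had log2FC of -0.39 each, and the *SLC25A33* replicates were almost equal within each group. The NAD carrier *SLC25A51* was at 2.13, 2.32, 1.87 and 1.10 (log2FC -0.39), so that most of its difference came from si-circZFR 2.

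The carriers of amino acids, S-adenosylmethionine, carnitine and glutathione spread in both directions. Of 11 listed genes 9 were tested, 2 had both si-circZFR libraries lower and 4 had both higher (28.1% of all genes tested in either direction), and the median log2FC was 0.12. *SLC25A39*, which imports glutathione, was the most abundant at 128, 153, 101 and 132 scaled RPKM, with overlapping groups (log2FC -0.27, limma FDR 0.502). Its log2FC was -0.14 without NC 2, -0.08 without si-circZFR 1 and -0.46 without si-circZFR 2. *SLC25A44*, the carrier of branched-chain amino acids, was at 12.4, 10.9, 9.42 and 7.56 (log2FC -0.42, FDR 0.245), and the glutamate carrier *SLC25A22* at 12.0, 11.1, 9.46 and 9.83 (log2FC -0.23). Higher values were seen for *SLC25A38*, the glycine carrier needed for heme synthesis, at 11.6, 11.4, 13.5 and 16.4 (log2FC 0.35, FDR 0.287). The S-adenosylmethionine carrier *SLC25A26* varied most between replicates of all the tested carriers (5.004 and 10.1 in NC, 6.97 and 17.0 in si-circZFR). Its log2FC of 0.55 was smaller than the difference of 0.89 between the NC libraries and of 1.17 between the si-circZFR libraries. The ornithine carrier *SLC25A15* was at 4.73 to 5.04 in all 4 libraries, the narrowest range of this group.

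The carriers closest to the citric acid cycle did not differ beyond their spread. *SLC25A1*, which exports citrate for lipid synthesis, was at 31.4, 35.1, 35.9 and 32.3 scaled RPKM (log2FC 0.04, 95% interval -0.36 to 0.44), and *SLC25A10*, the dicarboxylate carrier, at 20.8, 24.7, 20.8 and 21.2 (interval -0.51 to 0.30). The recovered reads of *SLC25A1* depend on a length that may be a fraction of the true one, so its reads are not given. Its values in the settings with recovered reads and with the length and GC correction rest on that length. The mitoferrins import iron. *SLC25A37* was at 24.9 in NC 1, 13.1 in NC 2, 20.5 in si-circZFR 1 and 20.5 in si-circZFR 2, so that both si-circZFR values lay between the NC values; its log2FC of 0.17 became 0.61 without NC 1 and -0.27 without NC 2. *SLC25A28* was at 5.39, 3.99, 4.74 and 3.41, with overlapping groups.

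Among the remaining genes, *SLC25A46*, an outer membrane protein of mitochondrial shape, was at 6.19 scaled RPKM in NC 1, 8.11 in NC 2, 8.54 in si-circZFR 1 and 8.77 in si-circZFR 2 (log2FC 0.25, limma FDR 0.441, and log2FC 0.08 without NC 1 and 0.42 without NC 2). NC 2 was nearer to the si-circZFR libraries than to NC 1. *SLC25A43*, whose substrate is not settled, was at 18.03, 18.6, 16.3 and 13.9 (log2FC -0.27, FDR 0.369), with both si-circZFR libraries lower and a log2FC of -0.16 without si-circZFR 2. The relatives of the uncoupling proteins, *SLC25A30* (3.55, 2.99, 2.66 and 3.76) and *SLC25A14* (3.001, 3.08, 2.37 and 2.88), had log2FC of -0.03 and -0.16. *SLC25A35* (6.05 to 8.69) and *SLC25A45* (3.91 to 5.54) had log2FC within 0.05 of 0 and overlapping groups.

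**Figure D4:**
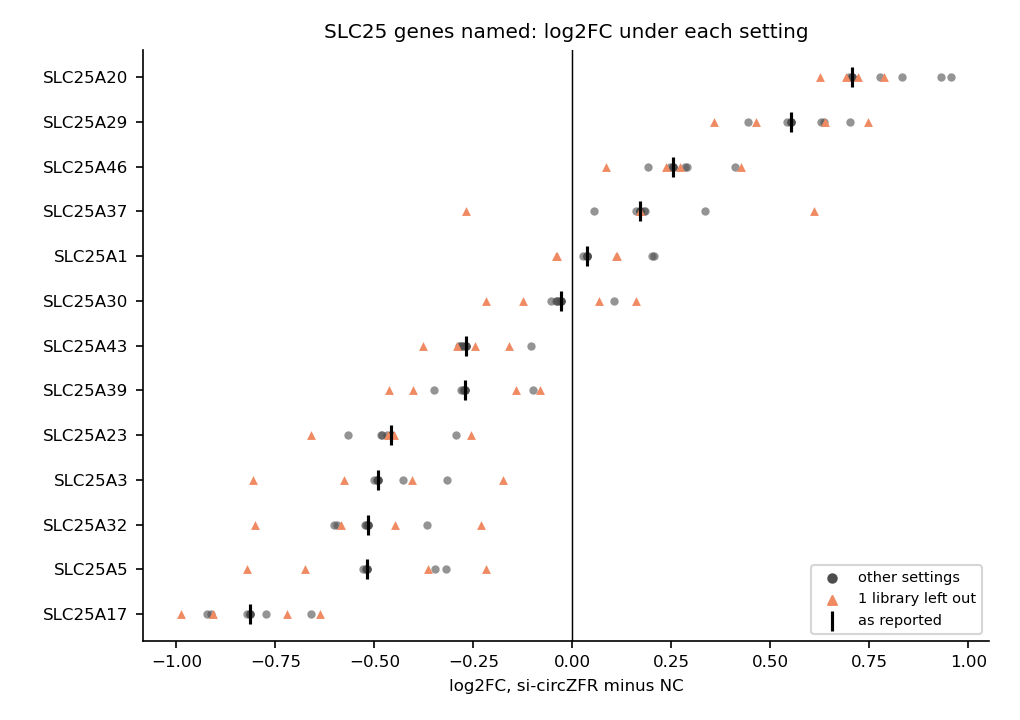
Log2FC (si-circZFR minus NC) of 13 SLC25 genes named by rule, as reported (black bar), with 1 library left out (triangles) and in the other settings (circles). *SLC25A17* stays between -0.99 and -0.64 and *SLC25A20* between 0.62 and 0.96, while *SLC25A37*, *SLC25A1* and *SLC25A30* lie on both sides of 0.

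Family members with other names were compared with the SLC25 genes. Of *UCP1*, *UCP2*, *UCP3*, *MTCH1* and *MTCH2*, *UCP1*, the uncoupling protein of brown fat, was listed at 0. Of the other 4, 0 had an unadjusted p under 0.05 (11.5% of all genes tested were lower and 10.1% higher). The groups were apart on the lower side for *UCP2* and on the higher side for *UCP3* (28.1% of all genes tested in either direction). *UCP3* was at 0.879, 0.285, 1.26 and 1.25 scaled RPKM (log2FC 0.54, limma FDR 0.282), with 8 to 37 reads in a library. *UCP2*, which regulates substrate export, was at 76.6, 73.9, 73.1 and 55.7 (log2FC -0.23), and *MTCH1*, an outer membrane protein, at 39.8, 49.3, 44.01 and 51.7 (log2FC 0.10).

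Of the 10 genes of the carrier import route, 2 were lower at an unadjusted p under 0.05 (11.5% of all genes tested were), 0 were higher (10.1%) and 0 passed the test. Both belong to the small TIM chaperones, which guide carriers through the intermembrane space. *TIMM9* was at 23.9 and 30.4 scaled RPKM in the NC libraries and 16.2 and 15.6 in the si-circZFR libraries (log2FC -0.73, limma FDR 0.117). *TIMM13* was at 14.96, 18.5, 11.8 and 11.4 (log2FC -0.48, FDR 0.187). *TIMM10*, the partner of *TIMM9*, was at 35.3, 48.0, 23.4 and 35.0 (log2FC -0.51, FDR 0.305), where NC 1 and si-circZFR 2 nearly met. The groups were apart on the lower side for these 3 of the 10 genes and on the higher side for 0. The share of all genes tested was 28.1% in either direction. The groups of the other 7 genes of this list overlapped.

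Of 20 other mitochondrial transporter genes, 2 were lower and 1 was higher at an unadjusted p under 0.05, close to the shares of all genes tested (11.5% and 10.1%), and 0 passed. The groups were apart on the lower side for 7 of them and on the higher side for 5, also near the shares of all genes (28.1% each). *SFXN4*, a sideroflexin linked to iron-sulfur clusters, was at 22.7, 26.9, 13.4 and 13.7 scaled RPKM (log2FC -0.82, limma FDR 0.091). *SFXN5*, of the same family, was at 6.07, 5.33, 9.04 and 10.8 (log2FC 0.70, FDR 0.117). *VDAC1*, the main pore of the outer membrane, was at 79.3, 106, 67.6 and 56.6 (log2FC -0.56, FDR 0.215).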

How the data were processed

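RNA was extracted with TRIzol, and libraries were made with the Ion Total RNA-Seq kit and sequenced on the Ion Proton. The authors aligned the reads to hg38 by their methods, whereas the labels name GRCh37, and deposited 1 RPKM value per gene and library; the methods state batch removal by SVA, and whether it touched these values is not given in the sources used here. No coordinates are in these values, and those printed come from RefSeq GRCh38.p14. Groups and replicate numbers came from the sample labels.

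Reads were recovered from the RPKM as whole multiples of what 1 read is worth. With a tolerance of 0.02, 24282 of 24289 genes above 0 (99.97%) gave whole reads. The gene length was a free choice here, and small RNAs, whose length is known, gave whole reads in 91.0% to 92.1% of cases. Values were scaled by unweighted trimmed mean log ratios (trimming 30% of ratios, 5% of levels), and genes with RPKM of at least 1 in 2 libraries (13885 of 40205) were fitted by limma 3.58.1 with a trend in R 4.3.3, on log2(scaled RPKM + 1), which understates the change of low genes. FDR is Benjamini-Hochberg over all genes tested. The test was tried on simulated counts. The pass mark there covered only changes larger than any seen for a carrier, so it does not measure how well smaller ones are found. The tables were handled in Python 3.11.15 with numpy 2.4.6 and pandas 2.3.3 and drawn with matplotlib 3.10.9.

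The members and gene lists were chosen with earlier results of these data known. Values in every library are given for carriers with an unadjusted p under 0.05, for those with groups apart and |log2FC| over 0.5, and for the most abundant of each substrate group (14 genes, of which 1 is counted but not reported here or drawn), and for the 3 genes with the smallest p in each other list. The other carriers given by library were chosen after their values were seen. Other settings changed the filter, the pseudocount, the scaling, the replicate block, length and GC content, recovered reads, the prior variance and each library left out. The circle's own junction reads were not analysed here.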

Additional observations from a re-analysis of the deposited data

How the results depend on the processing

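The 14 named carriers kept their direction and their side of FDR 0.05 in 175 of 182 values over 13 settings. Much of this count was fixed beforehand. The settings that changed the filter, the replicate block or the trend leave the log2FC of a gene as it was, so its direction could not change there. All 14 were also above FDR 0.05 as reported, the smallest at 0.11. The exceptions were *SLC25A17*, under 0.05 without NC 1, and 6 reversals: *SLC25A30* (log2FC 0.10 without scaling and -0.22 to 0.16 with a library left out, above 0 without NC 1 and without si-circZFR 1), *SLC25A1* (-0.041 without NC 1 to 0.11, and -0.038 without si-circZFR 1) and *SLC25A37* (-0.27 without NC 2 to 0.61 without NC 1). Without scaling the median of all genes tested rose to 0.15 and that of the carriers to 0.088, which is -0.061 relative to it. The carriers' median was -0.14 after the length and GC correction and between -0.16 (without NC 2) and -0.031 with a library left out.

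The genes passing numbered 0 without a filter (3676 at an unadjusted p under 0.05), 198 with CPM above 1 in 2 libraries, 2 with a pseudocount of 0.1, 15 after the length and GC correction, 304 with limma-voom on recovered reads, 1 without the trend, and 0 to 916 with a library left out, 916 without NC 1. Carriers lower at p under 0.05 numbered 2 with the CPM filter (5.88%, all genes 11.5%), 6 after the length and GC correction (18.8%, all 12.3%), 4 with limma-voom (12.5%, all 11.8%) and 1 to 4 with a library left out, 4 without NC 1 (12.5%, all 16.7%). With all libraries kept, those higher numbered at most 3, without scaling (9.38%, all genes 15.4%) and with the replicate number as a block (9.38%, all 10.6%). With a library left out, groups were apart on the lower side for 13 to 18 carriers (40.6% to 56.2%, all genes 36.8% to 42.5%) and on the higher side for 7 to 11 (21.9% to 34.4%, all genes 35.1% to 43.4%), since a group of 1 library overlaps less often. With the replicate number as a block, 63 genes passed and 3 carriers were lower at p under 0.05 (9.38%, all genes 11.8%). Nothing in the labels states whether same-numbered libraries were paired, and their deviations correlated at r = 0.0694 over 13885 genes. The cause of these changes was not tested. With 2 libraries a group, low genes such as *SLC25A20* (40 to 91 reads) rest on few reads.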
